A study of Mus musculus with 8 samples.

Results

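The mitosis and spindle genes described here are 44 genes whose products carry a cell through division, from the kinases that start mitosis to the proteins that part the daughter cells. They were chosen by name, with the further rule of an FPKM (the fragments sequenced from a gene, divided by its length and by the size of the library) of 0.5 or more in 2 or more of the 8 samples. Of 22504 genes listed, 12125 passed that floor, and so did 44 of the 44. Mitosis is entered when cyclin B and the kinase Cdk1 are switched on together. Microtubules then build a spindle that holds each chromosome by its kinetochore, a checkpoint delays anaphase until all chromosomes are held, and the anaphase-promoting complex ends the wait by marking securin and cyclin B for destruction. Most hepatocytes of an adult liver rest outside the cell cycle and enter it after loss of tissue, and the transcripts of these genes are made mainly in cells that are in G2 or mitosis.

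RNA was sequenced from 8 mice in 3 groups. All were Fah-/- on the 129S4 strain background, so every sample lacked the last enzyme of tyrosine breakdown, and all had been kept on NTBC, which inhibits this pathway upstream so that toxic intermediates do not form, at 7.5 mg/L in drinking water. The C 8w group (3 livers, named MCLI livers here) had 8 weeks of moderate chronic liver injury (MCLI), in which NTBC was lowered to 2.5% of that dose. The C 8w + A 4w group (3 livers, named SALI livers) had the same and then 4 weeks of severe acute liver injury (SALI), in which NTBC was removed. The C 12w group (2 samples, named tumors after their tissue label) had MCLI for 12 weeks. Length of MCLI and tissue therefore cannot be told apart in the tumors. The figures carry the group labels themselves. No mouse on the full NTBC dose and no Fah+/+ mouse was among the samples, and the ages were not given.

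Each sample was a piece of whole tissue, in which fewer cells of a type and less RNA per cell cannot be told apart. One protocol label speaks of retina, but the 11 hepatocyte markers listed summed to between 13271 and 25908 FPKM per sample and the 12 retina markers to between 2.35 and 4.04, with Crx, Rcvrn and Rpe65 listed at 0 in all 8. The transcript of the disrupted Fah gene was at 15.6 to 16.8 FPKM in the MCLI livers, 13.5 to 14.4 in the tumors and 5.02 to 6.36 in the SALI livers, which checks no genotype without a wild-type sample. The sample codes of the SALI livers form a series of their own, so the code series and that group cannot be told apart. For some genes the SALI livers and the other 5 samples stand apart. Alb, the albumin gene, was between 12946 and 16949.8 FPKM in the SALI livers and listed at 0 in each of the other 5 samples, and Gapdh, a glycolytic enzyme used by all cells, was between 68.2 and 99.9 against 0.0980 to 0.247. The 11 hepatocyte markers summed to between 13695 and 25908 FPKM in the 5 samples with Alb at 0. The cause was not tested, nor which of these sets of samples holds the unusual values. Whether the values of the SALI livers and of the other 5 were made in different ways cannot be told apart from treatment in any comparison of the SALI livers. Of the 44 mitosis and spindle genes, 38 shared at most 2% of their 50-base windows with another gene. The exceptions were Ccnb1 (23.4%), Cdc20 (10.4%), Plk1 (6.56%), Racgap1 (4.04%), Ncapd2 (2.92%) and Ndc80 (2.32%), whose levels are less certain. Exons of a gene on the opposite strand covered 29.3% of Kif20a (Cdc23), 22.8% of Ube2c (Tnnc2), 12.7% of Cdc25c, 12.5% of Ccna2 and 11.1% of Prc1, and whether reads were counted by strand was not given in the sources used here.

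The promoters are shown first because the letters of the start regions were used neither in choosing the 44 genes nor in the floor. The cell cycle homology region (CHR), TTTGAA, is the element by which the DREAM complex and the B-Myb and FoxM1 factors are known to act on genes of G2 and mitosis. CCAAT is the box bound by NF-Y, and TTTGGCGC and TTTCCCGC are forms of the E2F site typical of genes of DNA replication. All were searched on both strands, so that TTCAAA and ATTGG count as matches. RefSeq windows of 300 bases (250 before and 50 after the annotated start, build GRCm38.p6) were found for 35 of the 44 genes, in 37 windows. Ccna2, Cdc25c, Foxm1, Aurkb, Incenp, Tpx2, Dlgap5, Kif20a and Smc4 had none.

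The windows below are printed 5′ to 3′ on the strand of each gene, with the CHR and CCAAT letters on either strand in capitals. Cdc20 (chr4:118437294-118437593, minus strand), the activator of the anaphase-promoting complex, had the largest difference between the tumors and the MCLI livers, Ccnb2 (chr9:70421505-70421804, minus strand) and Cdk1 (chr10:69352863-69353162, minus strand) form the kinase that starts mitosis, and Plk1 (chr7:122159185-122159484, plus strand) is the kinase that acts beside it. Mki67 (chr7:135716330-135716629, minus strand) encodes the Ki67 antigen, by which dividing cells are stained in tissue. Hmmr (chr11:40733388-40733687, minus strand) and Pttg1 (chr11:43425932-43426231, minus strand) are shown because they rose in the SALI livers while most of the genes did not.
Cdc20: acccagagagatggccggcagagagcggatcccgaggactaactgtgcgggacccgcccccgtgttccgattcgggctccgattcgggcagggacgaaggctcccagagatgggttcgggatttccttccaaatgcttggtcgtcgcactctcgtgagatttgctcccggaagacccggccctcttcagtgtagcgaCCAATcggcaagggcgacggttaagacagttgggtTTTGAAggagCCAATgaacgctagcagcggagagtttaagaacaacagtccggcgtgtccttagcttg
Ccnb2: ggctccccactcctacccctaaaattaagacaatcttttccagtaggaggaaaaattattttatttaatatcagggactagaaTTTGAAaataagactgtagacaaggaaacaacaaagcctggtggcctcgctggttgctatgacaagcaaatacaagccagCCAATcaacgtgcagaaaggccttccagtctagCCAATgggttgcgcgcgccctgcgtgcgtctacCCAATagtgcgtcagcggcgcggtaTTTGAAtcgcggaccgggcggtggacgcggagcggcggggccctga
Cdk1: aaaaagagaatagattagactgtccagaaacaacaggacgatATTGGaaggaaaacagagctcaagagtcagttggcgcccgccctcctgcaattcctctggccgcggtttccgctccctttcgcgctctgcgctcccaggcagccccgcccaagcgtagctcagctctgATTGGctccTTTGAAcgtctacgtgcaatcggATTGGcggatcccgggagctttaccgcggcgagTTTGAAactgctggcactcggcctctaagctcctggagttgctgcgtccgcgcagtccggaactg
Plk1: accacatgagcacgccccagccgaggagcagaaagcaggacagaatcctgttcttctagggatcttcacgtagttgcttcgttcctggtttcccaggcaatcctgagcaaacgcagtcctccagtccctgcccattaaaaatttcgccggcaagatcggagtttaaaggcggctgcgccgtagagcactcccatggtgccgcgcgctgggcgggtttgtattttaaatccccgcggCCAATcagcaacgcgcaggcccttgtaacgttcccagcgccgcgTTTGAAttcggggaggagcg
Mki67: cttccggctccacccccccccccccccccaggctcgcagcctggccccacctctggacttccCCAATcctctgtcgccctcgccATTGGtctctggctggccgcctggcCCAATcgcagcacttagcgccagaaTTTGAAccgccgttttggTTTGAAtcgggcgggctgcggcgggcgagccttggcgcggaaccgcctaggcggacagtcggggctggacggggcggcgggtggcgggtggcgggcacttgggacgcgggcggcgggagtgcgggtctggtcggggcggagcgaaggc
Hmmr: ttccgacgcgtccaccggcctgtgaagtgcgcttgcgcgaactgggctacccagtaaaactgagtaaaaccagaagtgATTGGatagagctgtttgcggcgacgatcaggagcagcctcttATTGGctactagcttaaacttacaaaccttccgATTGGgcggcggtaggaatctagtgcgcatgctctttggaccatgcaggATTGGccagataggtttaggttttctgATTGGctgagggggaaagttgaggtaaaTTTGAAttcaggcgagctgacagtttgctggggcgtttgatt
Pttg1: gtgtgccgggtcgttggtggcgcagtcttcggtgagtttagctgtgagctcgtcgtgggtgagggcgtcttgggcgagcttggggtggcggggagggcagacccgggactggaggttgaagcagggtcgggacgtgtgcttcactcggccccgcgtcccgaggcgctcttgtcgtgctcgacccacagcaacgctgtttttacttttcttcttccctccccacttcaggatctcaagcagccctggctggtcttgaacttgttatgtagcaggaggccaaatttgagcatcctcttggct
Counted from the annotated start (negative before it), the CHR letters began at −18 in Cdc20, at −167 and 5 in Ccnb2, at −71 and −15 in Cdk1, at 31 in Plk1, at −116 and −98 in Mki67 and at 9 in Hmmr. The window of Pttg1 held neither the CHR nor the CCAAT letters.

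The CHR letters stood in the window of 25 of the 35 genes (71.4%), against 20.2% of the 27025 genes with a window. In 22 of the 35 (62.9%) a match lay within 50 bases of the start, against 5.72% of all genes. CCAAT was also found in 25 (71.4% against 41.1%), and both kinds of letters together in 22 (62.9% against 7.97%). The E2F letters were found in 1 of the 35 genes, Ncapd2 of the condensin complex (2.86% against 1.80%). A list of 38 genes of DNA replication with a window went the other way, with E2F letters in 31.6% and CHR letters in 18.4%. Of 53 other mitosis genes with a window 60.4% held the CHR letters, and of 14 subunits of the anaphase-promoting complex itself 14.3% did. Birc5, Bub1, Ccnb1, Cenpe, Mad2l1, Melk, Nuf2, Nusap1, Pttg1 and Tacc3 had a window without the CHR letters. The matches are a description of the letters, and a missing match speaks only of the window searched.

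**Figure D1:**
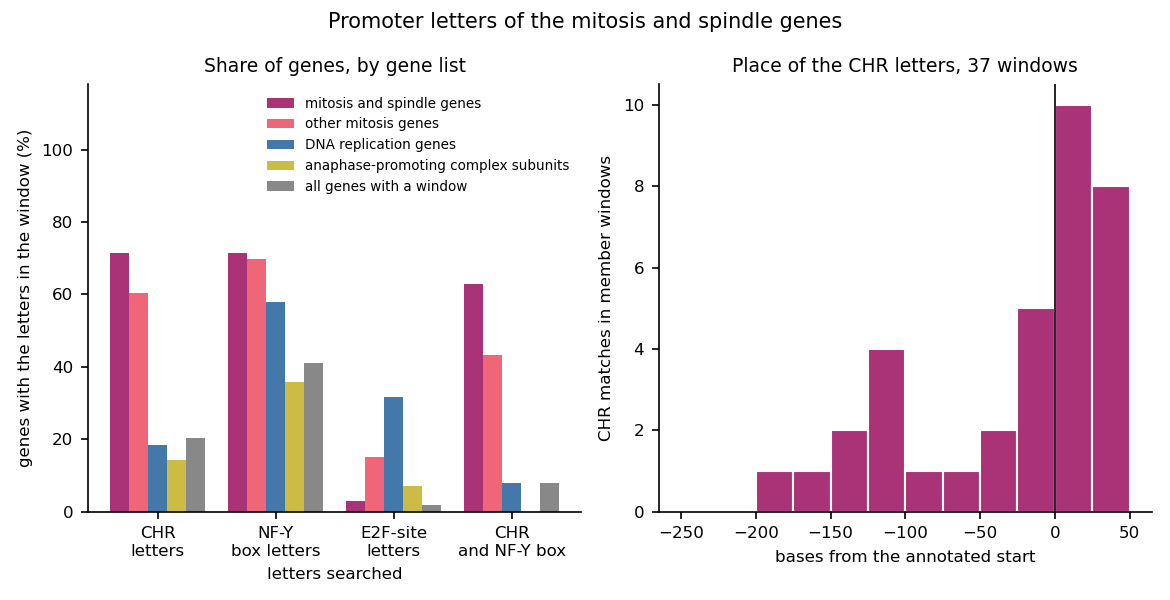
The left panel gives the percentage of genes whose 300-base window holds the CHR, NF-Y box (CCAAT) and E2F-site letters for 5 gene lists, and the right panel counts the CHR matches of the 37 member windows by their distance in bases from the annotated start. The mitosis and spindle genes reach 71.4% for the CHR letters where all genes are at 20.2%, and 25 of the 35 matches lie within 50 bases of the start. Ect2 and Prc1 have 2 overlapping windows each, so the 35 matches are 32 distinct sites, 23 of them within 50 bases of a start.

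In the 2 tumors all 44 mitosis and spindle genes were higher than in the MCLI livers (12.3% of all genes were), with a median ratio of mean FPKM of 11.0. That direction was fixed beforehand for 21 of the 44, which passed the floor only through the tumors, and the median includes them. Ccna2, Cdca8 and Prc1, at 0.5 FPKM or more in 1 SALI liver and 0 MCLI livers, also needed a tumor to pass the floor. In the SALI livers 3 of the 44, Hmmr, Pttg1 and Tacc3, were higher than in the MCLI livers (24.2% of all genes were) and 41 did not pass the test. The FPKM values of the 44 genes summed to 22.0, 26.6 and 24.4 in the MCLI livers (24.4 ± 2.29, SD, n = 3), to 28.9, 40.9 and 27.5 in the SALI livers (32.4 ± 7.32, n = 3) and to 173 and 215 in the tumors (194 ± 29.7, n = 2). The median gene was at 0.250, 0.375 and 0.369 FPKM in the MCLI livers, at 0.363, 0.521 and 0.253 in the SALI livers and at 2.67 and 4.33 in the tumors. Both tumors lay above the other 6 on both measures. All of these levels were low, and 35 of the 44 genes were under 1 FPKM in every MCLI liver and 32 in every SALI liver, while 41 were at 1 or more in both tumors.

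**Figure D2:**
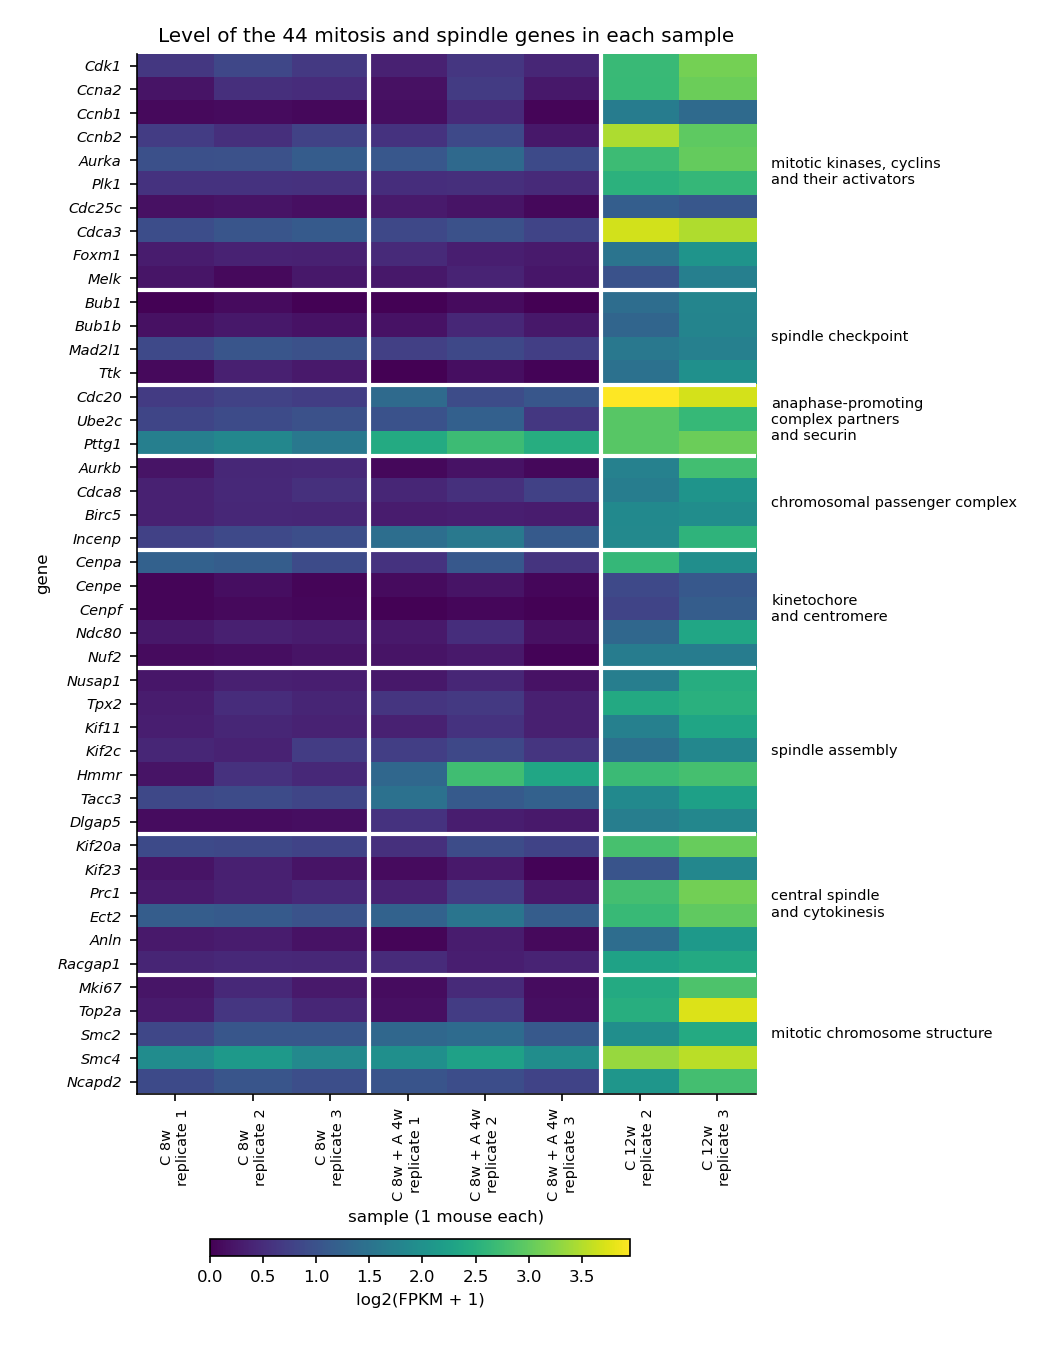
The heat map gives log2(FPKM + 1) of the 44 genes (rows, by role) in the 8 samples (columns, by group), from dark (0) to bright (highest). The 2 columns of the tumors are brighter than those of the MCLI livers in every row, and Hmmr, Pttg1 and Smc4 are the rows that are also bright in the SALI livers.

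The groups were compared by limma on the log2(FPKM + 1) scale across all 12125 genes past the floor, and a gene passed the test at a Benjamini-Hochberg adjusted p under 0.05. Differences on this scale understate the change of low genes, so the ratio of mean FPKM is also given. The comparison of the tumors with the MCLI livers asks how 12 weeks of MCLI with a tumor differ from 8 weeks of MCLI. All 44 passed as higher in the tumors (12.3% of all genes did) and 0 as lower (6.34% did). The median log2 difference was 1.52, between 0.68 for Mad2l1 and 3.09 for Cdc20, against 0.12 over all genes, and 40 of the 44 passed with a difference of at least 1 (3.47% of all genes). The ratio of mean FPKM lay between 2.23 for Mad2l1 and 53.3 for Bub1. The tumors did not overlap the MCLI livers for any of the 44, which was the case in that direction for 35% of all genes. Since 21 of the 44 passed the floor only through the tumors, as did 127 of all genes, these had to be higher there than in either liver group, and the count over the 44 is no support for a change. They were Ccnb1, Plk1, Cdc25c, Foxm1, Melk, Bub1, Bub1b, Ttk, Aurkb, Birc5, Cenpe, Cenpf, Ndc80, Nuf2, Nusap1, Kif11, Dlgap5, Kif23, Anln, Racgap1 and Mki67, and their differences from the tumors and adjusted p are given as a description. The role counts and medians of tumor differences include them. Ccna2, Cdca8 and Prc1 were at 0.5 FPKM or more in 1 SALI liver and 0 MCLI livers, so they too passed only with a tumor. The floor did not fix their direction, but favoured a higher value in the tumors. The floor did not decide the call of the 12 genes that were at 0.5 FPKM or more in all 8 samples.

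**Figure D3:**
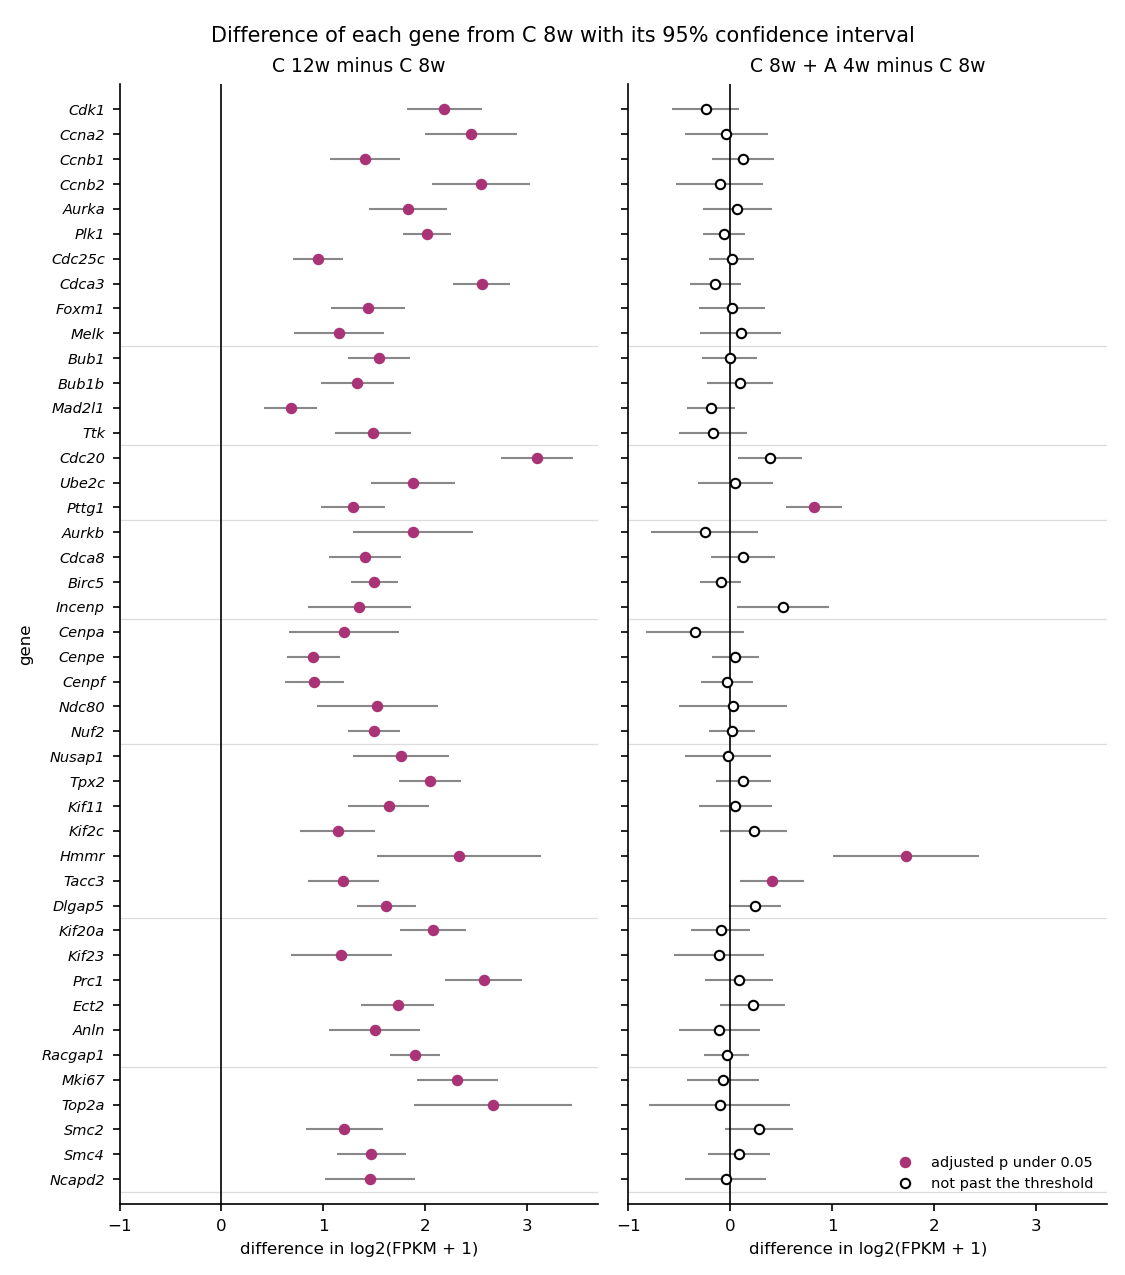
Points give the difference in log2(FPKM + 1) of each gene between the tumors and the MCLI livers (left) and between the SALI livers and the MCLI livers (right), with 95% confidence intervals as lines and an adjusted p under 0.05 as filled points. On the left all 44 intervals lie above 0, and on the right the filled points are Hmmr, Pttg1 and Tacc3.

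The kinases, cyclins and activators of mitotic entry were all higher in the tumors (10 of 10, median log2 difference 1.92). Cdca3, which recruits a ubiquitin ligase to the inhibitory kinase Wee1, had the highest mean FPKM of them over the 8 samples and the largest difference, although Aurka had the higher mean in both liver groups. The FPKM of Cdca3 was 0.902, 1.05 and 1.17 in the MCLI livers, 0.804, 0.967 and 0.749 in the SALI livers, and 11.8 and 10.2 in the tumors. The livers overlapped each other and both tumors lay far above them, with a log2 difference between the tumors and the MCLI livers of 2.56 ± 0.12 (SE, adjusted p = 7.98e-05). The cyclins Ccnb2 and Ccna2 and the kinase Cdk1 followed, with log2 differences of 2.55, 2.45 and 2.19 and mean FPKM 14.2, 18.7 and 10.2 times that of the MCLI livers. Plk1 and Aurka, kinases of spindle poles and kinetochores, differed by 2.02 and 1.83. Foxm1, a transcription factor for genes of this phase, differed by 1.44 and reached 1.87 and 3.14 FPKM in the tumors. Ccnb1 was the least abundant cyclin, at 0.0652 to 0.0794 FPKM in the MCLI livers and at 2.16 and 1.57 in the tumors. Melk and the phosphatase Cdc25c, which activates Cdk1, had the smallest differences of the role, 1.16 and 0.95. In this role Ccnb1, Plk1, Cdc25c, Foxm1 and Melk passed the floor through the tumors alone, and Ccna2 also needed a tumor to pass it.

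The 4 genes of the spindle checkpoint were all higher in the tumors, with a median log2 difference of 1.41, but 3 of them, Bub1, Bub1b and Ttk, passed the floor through the tumors alone. Bub1, a checkpoint kinase of the kinetochore, was at 0.0141, 0.0826 and 0.0198 FPKM in the MCLI livers, at 0.0152 and 0.0863 and listed at 0 in the SALI livers, and at 1.67 and 2.47 in the tumors. It was nearly undetected in all 6 livers, so its ratio of 53.3, the largest of the 44, rests on values close to 0. Its log2 difference was 1.55 ± 0.13 (adjusted p = 0.000539). Mad2l1, which encodes the checkpoint protein that holds Cdc20, had the highest level of the role in both liver groups, with Ttk highest in the tumors. It was at 0.836, 1.07 and 0.980 in the MCLI livers, 0.685, 0.807 and 0.665 in the SALI livers, and 1.98 and 2.30 in the tumors. Its 3 groups did not overlap, with the SALI livers lowest, and the difference of 0.68 ± 0.11 between the tumors and the MCLI livers (adjusted p = 0.00671) was the smallest of the 44. Bub1b and Ttk, the other checkpoint kinases, differed by 1.34 and 1.49.

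Securin and the partners of the anaphase-promoting complex held the largest difference. Cdc20 was at 0.607, 0.717 and 0.652 FPKM in the MCLI livers, 1.58, 0.900 and 1.09 in the SALI livers, and 14.5 and 11.9 in the tumors. It was the most abundant of the 44 in the tumors, at 20.1 times the mean of the MCLI livers (log2 difference 3.09 ± 0.15, adjusted p = 7.98e-05). Ube2c, the ubiquitin-conjugating enzyme of the complex, differed by 1.88. Pttg1, which encodes securin, was at 2.25, 2.56 and 2.01 in the MCLI livers, 4.33, 5.54 and 4.52 in the SALI livers, and 6.64 and 7.39 in the tumors. Its groups formed 3 separate steps, and the tumors were above the MCLI livers by 1.29 ± 0.14 (adjusted p = 0.00114). The subunits of the complex itself were at other levels, and 1 of the 15, Anapc4, was higher in the tumors (log2 difference 0.61, adjusted p = 0.0136) and 0 were lower, with a median of 0.07 over the 15.

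All 4 genes of the chromosomal passenger complex, which corrects faulty attachments of chromosomes and later directs cytokinesis, were higher in the tumors (median 1.46). Incenp, its scaffold, was at 0.703, 0.833 and 0.932 FPKM in the MCLI livers, 1.69, 2.03 and 1.17 in the SALI livers, and 2.63 and 4.95 in the tumors. Aurkb, its kinase, was at 0.160, 0.354 and 0.374 in the MCLI livers, 0.0600, 0.138 and 0.0616 in the SALI livers, and 2.35 and 5.77 in the tumors. Scaffold and kinase stood in opposite order in the livers, Incenp being higher and Aurkb lower in all 3 SALI livers than in any of the MCLI livers, although neither difference passed the test (adjusted p = 0.0704 and 0.42). The tumors exceeded the MCLI livers by 1.35 ± 0.22 for Incenp (adjusted p = 0.00606) and by 1.88 ± 0.26 for Aurkb (adjusted p = 0.00303). Birc5 (survivin) and Cdca8 (borealin), the other members of the complex, differed by 1.50 and 1.41. Aurkb and Birc5 passed the floor through the tumors alone, and Cdca8 also needed a tumor to pass it.

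The kinetochore and centromere genes had the lowest median of the roles (1.20, 5 of 5 higher in the tumors), and 4 of the 5, all but Cenpa, passed the floor through the tumors alone. Cenpa, the histone H3 variant that marks centromeres, was at 1.34, 1.25 and 0.879 FPKM in the MCLI livers, 0.487, 1.13 and 0.515 in the SALI livers, and 5.23 and 2.90 in the tumors. The tumors differed from each other more than the livers did, and its difference of 1.20 ± 0.24 had the highest adjusted p of the 44 (0.0124), which was 0.0502 without MCLI liver replicate 3. Ndc80, which ties kinetochores to microtubules, was at 0.193, 0.276 and 0.232 in the MCLI livers, 0.210, 0.437 and 0.136 in the SALI livers, and 1.51 and 4.06 in the tumors. The livers of both groups overlapped, and the tumors exceeded the MCLI livers by 1.53 ± 0.26 (adjusted p = 0.00711). Nuf2, its partner, differed by 1.50, and the motor Cenpe and the large protein Cenpf by 0.90 and 0.91. Cenpf lay nearest to the floor of all 44, with 0.745 FPKM in its second-highest sample, and no gene of the list lay outside it.

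The genes of spindle assembly were higher in the tumors in 7 of 7 (median 1.64). Hmmr, which encodes a receptor for hyaluronan that also binds spindle microtubules, was at 0.156, 0.479 and 0.370 FPKM in the MCLI livers, 1.51, 5.68 and 4.07 in the SALI livers, and 5.47 and 5.92 in the tumors. All 3 SALI livers lay above the MCLI livers, and the highest of them was within the range of the tumors. The tumors exceeded the MCLI livers by 2.33 ± 0.35 (adjusted p = 0.00441). Tpx2, an activator of Aurora A at the spindle, differed by 2.05, the microtubule-bundling Nusap1 by 1.77 and the motor Kif11, which pushes spindle poles apart, by 1.64. Dlgap5 and Kif2c differed by 1.62 and 1.14, and Tacc3, which stabilises spindle microtubules, by 1.20. Nusap1, Kif11 and Dlgap5 passed the floor through the tumors alone.

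In the central spindle and cytokinesis 6 of 6 genes were higher in the tumors (median 1.82). Prc1, which bundles the microtubules between the parting chromosomes, was at 0.224, 0.280 and 0.369 FPKM in the MCLI livers, 0.302, 0.631 and 0.209 in the SALI livers, and 5.82 and 7.65 in the tumors, a log2 difference of 2.57 ± 0.16 (adjusted p = 0.00022). Ect2, the activator of RhoA at the cleavage furrow, was the highest of the role in both liver groups, with Prc1 highest in the tumors. It was at 1.23, 1.18 and 1.01 in the MCLI livers, 1.37, 1.91 and 1.25 in the SALI livers, and 5.35 and 6.93 in the tumors. For both genes the tumors lay well above all livers, and for Ect2 the log2 difference was 1.73 ± 0.16 (adjusted p = 0.000614). Kif20a and Racgap1 differed by 2.07 and 1.90, and Anln and Kif23 by 1.51 and 1.18. Kif23, Anln and Racgap1 passed the floor through the tumors alone, and Prc1 also needed a tumor to pass it.

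Among the genes of mitotic chromosome structure, 5 of 5 were higher in the tumors (median 1.47). Mki67 was at 0.169, 0.372 and 0.208 FPKM in the MCLI livers, 0.0957, 0.393 and 0.0936 in the SALI livers, and 4.34 and 6.24 in the tumors. The livers overlapped and the tumors were 21.2 times the mean of the MCLI livers (log2 difference 2.32 ± 0.17, adjusted p = 0.000317), the only samples in which it reached the floor. Top2a, the topoisomerase that untangles sister chromatids, was at 0.224, 0.540 and 0.343 in the MCLI livers, 0.122, 0.630 and 0.111 in the SALI livers, and 4.57 and 12.4 in the tumors. Its tumors differed from each other by more than those of any other of the 44 genes on the log2 scale, and the difference from the MCLI livers was 2.66 ± 0.34 (adjusted p = 0.00228). Smc4 of condensin was the highest of the 44 in the MCLI livers, at 2.81, 3.36 and 2.63, and was at 2.92, 3.81 and 2.82 in the SALI livers and 9.14 and 10.7 in the tumors. Its relative rise was smaller, at 3.38 times the mean of the MCLI livers (log2 difference 1.47 ± 0.15, adjusted p = 0.000963), and the condensin genes Smc2 and Ncapd2 differed by 1.20 and 1.46.

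**Figure D4:**
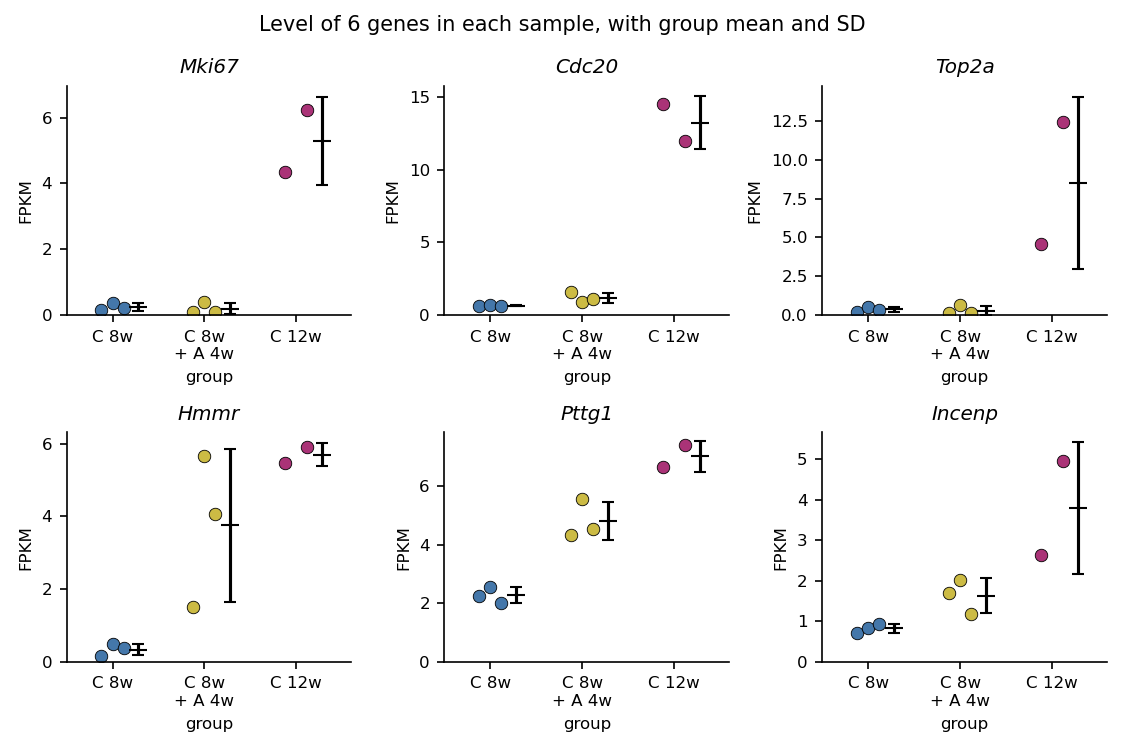
Each panel gives the FPKM of 1 gene in every sample (points, by group) with the group mean and SD beside it (3 mice per group, 2 in the tumors). Mki67, Cdc20 and Top2a are low in both liver groups and high in the tumors, whereas Hmmr, Pttg1 and Incenp have SALI livers above the MCLI livers, with the highest Hmmr sample of that group at 5.68 FPKM.

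The comparison of the SALI with the MCLI livers asks what 4 weeks without NTBC added to 8 weeks of MCLI. The SALI livers had 12 weeks of injury in total and the MCLI livers 8, so the longer course cannot be told apart from the removal of NTBC. Of the 44 genes, 3 were higher (24.2% of all genes were), 0 were lower (12.6% of all genes were) and 41 did not pass limma's test, of which 2 had an unadjusted p under 0.05, both of them above 0. The 41 divided into 21 with a difference above 0 and 20 below, and the median over the 44 was 0.02 against 0.12 over all genes. Hmmr rose by 1.73 ± 0.31, to 11.2 times the mean of the MCLI livers (adjusted p = 0.00369). Pttg1 rose by 0.82 ± 0.12, to 2.11 times (adjusted p = 0.00136). Tacc3 was at 0.813, 0.874 and 0.779 FPKM in the MCLI livers and at 1.78, 1.18 and 1.34 in the SALI livers, without overlap, and rose by 0.41 ± 0.14 (adjusted p = 0.0454). The call of Tacc3 was lost without a floor (adjusted p = 0.0756), under all 3 other scalings of the samples (adjusted p between 0.069 and 0.132) and without MCLI liver replicate 1, 2 or 3 or SALI liver replicate 1 or 3 (adjusted p between 0.0865 and 0.134).

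Cdc20 and Incenp came next, with differences of 0.39 ± 0.14 and 0.52 ± 0.20 that did not pass (adjusted p = 0.0563 and 0.0704). The groups were separate in the higher direction for 8 of the 44 genes (38.5% of all genes) and in the lower direction for 5, Cdk1, Plk1, Mad2l1, Aurkb and Birc5 (21.1% of all genes). For Mki67 the difference was −0.07 with a 95% interval from −0.43 to 0.28, and for Cdk1 −0.24 from −0.57 to 0.09. The interval of Top2a was wider, from −0.80 to 0.59. Compared with the tumors, the SALI livers were lower for 43 of the 44 genes (15.4% of all genes were lower and 17.2% higher), with a median of −1.53, and for 21 of them the floor fixed that direction. The difference was largest for Top2a (−2.77) and smallest among those that passed for Pttg1 (−0.47, adjusted p = 0.0301). The call of Pttg1 was lost with only the 2 groups compared and without MCLI liver replicate 1, SALI liver replicate 1, SALI liver replicate 3 or tumor replicate 3 (adjusted p between 0.0558 and 0.1004). Hmmr was the gene that did not pass, at −0.61 ± 0.35 (adjusted p = 0.221, 95% interval −1.41 to 0.20). Both comparisons use the SALI livers, and each shares a group with the comparison of the tumors and the MCLI livers.

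Over all 3 groups, limma's F test was passed by 44 of the 44 genes (47.8% of all genes), and the mean was highest in the tumors for all 44 (16.2% of all genes passed and were highest there), which the floor had fixed for 21 of them. The samples within a group also differed. In the SALI livers, replicate 2 held the highest value of the 3 for 36 of the 44 genes (49.1% of all genes), and for 19 of them it was at least 2 times the mean of the other samples. The 12 macrophage markers summed to 692 FPKM in that sample, against 267 and 220 in replicates 1 and 3 and between 275 and 326 in the MCLI livers, and their part in its values was not tested. Without that sample 4 of the 44 genes passed against the MCLI livers, Cdc20 being added, where 3943 of the 12125 genes passed in either direction. In the MCLI livers, replicate 2 was highest for 28 of the 44 (39.5% of all genes).

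In the tumors, replicate 3 was above replicate 2 for 37 of the 44 genes (61.2% of all genes), with a median log2 difference of 0.35 against 0.11 over all genes. Top2a (1.27), Aurkb (1.02) and Ndc80 (1.01) differed most between the tumors. Ccnb1, Ccnb2, Cdc25c, Cdca3, Cdc20, Ube2c and Cenpa ran the other way and were higher in replicate 2. The 8 bile duct markers summed to 355 FPKM in replicate 3 and to 32.0 in replicate 2, against 13.4 to 18.6 in the MCLI livers and 30.4 to 36.9 in the SALI livers. Of the 5 bile duct markers tested, 3 were higher in the tumors than in the MCLI livers (Epcam, Sox9 and Spp1) and 0 lower, with a median log2 difference of 1.42, and 1 was higher in the SALI livers than in the MCLI livers. Spp1 made up most of the sum in replicate 3 (311 FPKM), and the part of duct cells in the levels of the 44 genes was not tested. Of the 23 genes whose direction the floor did not fix, 23 lay above the MCLI livers on average without replicate 3 and 23 without replicate 2. So did 12 of the 12 genes at 0.5 FPKM or more in all 8 samples. Among the 23, Ccna2, Cdca8 and Prc1 passed the floor only with a tumor. The median over the 44 was 1.38 without replicate 3 and 1.74 without replicate 2.

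**Figure D5:**
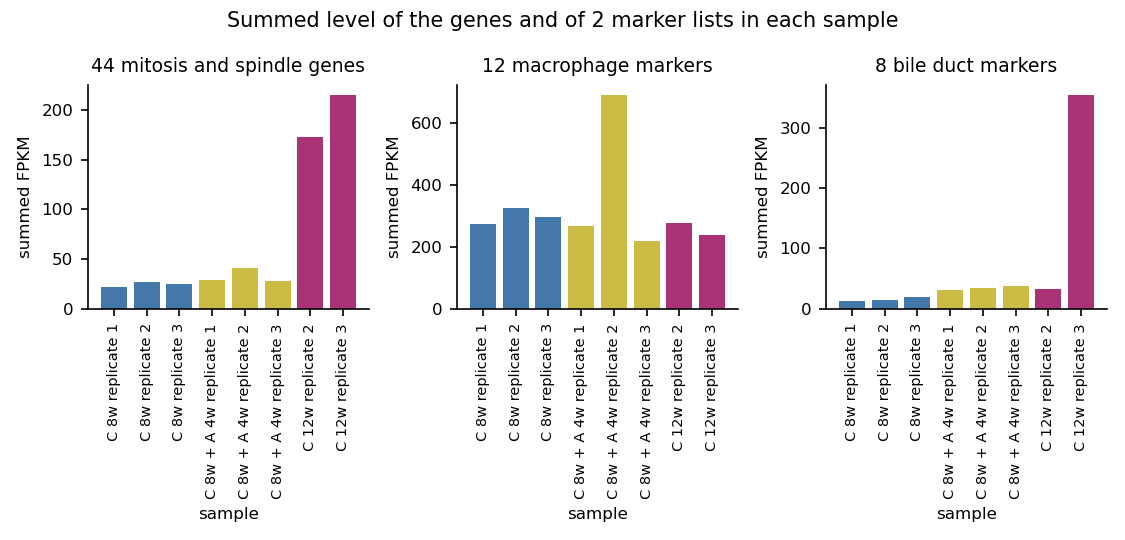
Bars give the summed FPKM of the 44 genes, of 12 macrophage markers and of 8 bile duct markers in each sample, coloured by group. The 44 genes are highest in both tumors (173 and 215), the macrophage markers in SALI liver replicate 2 (692) and the bile duct markers in tumor replicate 3 (355).

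Markers of hepatocytes and of other dividing or infiltrating cells were set beside the 44 genes. Of the 11 hepatocyte markers tested, 1 was higher and 3 lower in the SALI livers than in the MCLI livers (median −0.77), 1 higher and 5 lower in the SALI livers than in the tumors (median −0.65), and 1 higher and 1 lower in the tumors than in the MCLI livers (median 0.17). T and NK cell markers summed to at most 4.97 FPKM in any sample and B and plasma cell markers to at most 7.15, and of the 12 macrophage markers 0 passed limma's test in any of the 3 comparisons (unadjusted p under 0.05 for 1 in the tumors against the MCLI livers, 0 in the SALI livers against the MCLI livers and 2 in the SALI livers against the tumors). Among the stellate cell and fibroblast markers 3 of 10 were higher and 1 lower in the tumors than in the MCLI livers, 0 higher and 1 lower in the SALI livers than in the MCLI livers, and 2 higher and 3 lower in the SALI livers than in the tumors. The part of these cells in the levels of the 44 genes was not tested.

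Other genes of the cell cycle were measured in the same samples. Over all genes 12.3% were higher and 6.34% lower in the tumors than in the MCLI livers. For the SALI livers against the MCLI livers these shares were 24.2% and 12.6%. Of 57 other mitosis genes tested, 47 were higher in the tumors than in the MCLI livers and 0 lower, with a median of 1.12. As 30 of the 57 passed the floor only through the tumors and had to be higher there, the count is no support for a change. Of the other 27 genes 17 were higher, but some of the 27, such as Bora and Dsn1, also needed a tumor to pass the floor. Among the 57, Ckap2l, a spindle protein, rose by 1.90, Oip5 of the centromere by 1.57 and the centrosome kinase Nek2 by 2.04 (adjusted p = 2.57e-04, 2.57e-04 and 3.17e-04), of which Ckap2l and Oip5 passed the floor through the tumors alone. In the SALI livers 7 of the 57 were higher than in the MCLI livers. Zwint of the kinetochore was the most abundant of the list, at 25.9, 27.4 and 29.9 FPKM in the MCLI livers, 110, 82.2 and 87.3 in the SALI livers, and 31.5 and 25.7 in the tumors. Cks2, a subunit that binds Cdk1, was likewise at 5.07, 5.21 and 6.41, then 37.4, 35.5 and 35.2, and then 4.96 and 5.57. Both were high in the SALI livers and overlapped between the MCLI livers and the tumors, and 29.7% of the windows of Cks2 and 2.02% of those of Zwint are shared with another gene.

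Of 41 genes of DNA replication 22 were higher in the tumors than in the MCLI livers and 0 lower, with a median of 0.74 (2 of the 22, Uhrf1 and Pole, passed the floor only through the tumors), among them Dbf4 (1.01), Mcm6 (2.15) and Uhrf1 (1.48, with 15.4% of its windows shared with another gene). Pcna, the sliding clamp of the replication fork, was at 3.88, 5.14 and 3.98 FPKM in the MCLI livers, 20.5, 25.6 and 23.0 in the SALI livers, and 4.96 and 11.9 in the tumors. It was highest in the livers without NTBC, where most of the 44 genes were low, and rose there by 2.17 over the MCLI livers (adjusted p = 0.000426), but 19.1% of its windows are shared with another gene. Of the 41 genes 8 were higher and 3 lower in the SALI livers than in the MCLI livers (24.2% and 12.6% of all genes were). The other 30 did not pass, and the median over the 41 was −0.02. Cohesin and its regulators were higher in the tumors for Rad21 (0.61) and Stag1 (0.42) of 10. Of 17 E2F, B-Myb and DREAM genes 6 were higher and 0 lower, among them Rbl1 (0.94), E2f2 (0.88) and E2f3 (0.74), of which E2f2 passed the floor through the tumors alone, whereas the repressor E2f4 differed by 0.45 (adjusted p = 0.0531).

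The genes that restrain division were divided. Of 16 CDK inhibitors and brakes on G2, 5 were higher and 4 lower in the tumors than in the MCLI livers (12.3% and 6.34% of all genes). In the SALI livers 6 were higher and 1 lower than in the MCLI livers (24.2% and 12.6% of all genes). Cdkn1a, which encodes the p53-induced inhibitor p21, was at 39.5, 46.0 and 67.0 FPKM in the MCLI livers, 109, 94.0 and 86.1 in the SALI livers, and 41.4 and 43.2 in the tumors. It rose by 0.94 in the SALI livers (adjusted p = 0.00644) and did not pass in the tumors (−0.22, adjusted p = 0.477). Ccng1, another p53 target, was at 44.0, 47.1 and 61.8 in the MCLI livers, 89.1, 96.6 and 65.5 in the SALI livers, and 34.3 and 20.2 in the tumors, higher in the former (0.70, adjusted p = 0.0441) and lower in the latter (−0.91, adjusted p = 0.0436). Gadd45b and Gadd45g, which hold cells in G2 under stress, were lower in the tumors (log2 differences −1.96 and −1.52), while Cdkn2c, an inhibitor of Cdk4 and Cdk6, and Pkmyt1, which inhibits Cdk1, were higher by 1.20 and 1.87, Pkmyt1 having passed the floor through the tumors alone.

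Within the 44, the genes with the CHR letters in their window had a median log2 difference between the tumors and the MCLI livers of 1.73 (25 genes, 0.91 to 3.09), those with a window without them 1.35 (10 genes, 0.68 to 1.77) and those without a window 1.62 (9 genes). The ranges overlapped and no test was made of this. Of the 3 genes that rose in the SALI livers, Hmmr held the CHR letters and Pttg1 and Tacc3 did not.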

How the data were processed

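RNA of 8 Fah-/- mice (3 MCLI livers, 3 SALI livers and 2 tumors, grouped by the treatment in their labels) was measured by RNA sequencing after TruSeq library preparation. The deposited unit is FPKM, in which the authors divided the fragments of each of 22504 genes by gene length and library size, in 1 table with 0 columns of other samples. The submitters' processing notes name Bowtie 0.12.2 and the mouse build mm8 without a role. The quantifier and the annotation were not given in the sources used here. The absolute depth is unknown. Low values of sample pairs stand in whole-fragment ratios, from which depths relative to MCLI liver replicate 1 between 0.911 and 1.06 were read, and no intervals or floors of counting error were set. FPKM summed to between 324735 and 399342 per sample.

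A floor of 0.5 FPKM in 2 or more of the 8 samples was set, values were taken as log2(FPKM + 1), a pseudocount of 1, and the 3 groups were fitted together in limma 3.58.1 (R 4.3.3) by lmFit and trended eBayes. Tests were two-sided, with Benjamini-Hochberg adjustment over 12125 genes and a threshold of 0.05. On simulated data of the tumors against the MCLI livers with 200 of 12125 genes changed by 2 on the log2 scale, 98.1% of them were recovered and 4.82% of the calls were false, over 20 draws. The median change of the 44 genes was smaller, at 1.52, and 35 of them were under 1 FPKM in every MCLI liver. Recovery was not given for changes or levels like these. Shared sequence and exon overlap were computed from GENCODE transcripts with Python 3.11.15, and promoter letters were searched in RefSeq windows of GRCm38.p6. No coordinate of the authors' build was used.

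The 44 genes, their roles and all other gene lists were chosen with earlier results of these data known. Values in every sample are given for the gene of highest mean FPKM and the gene of largest difference between the tumors and the MCLI livers in each role, and for Mki67. Tacc3, which passed where most of its role did not, is given likewise. From the other lists, genes are named from the 3 with the smallest p in the tumors against the MCLI livers and the 3 of highest mean FPKM. Fah, Alb, Gapdh, Aurka as the highest kinase of the livers, Epcam, Sox9, Spp1 and the other markers named were chosen after their values were seen. The alternatives were a pseudocount of 0.1, other floors, 3 scalings, no trend, fits of only the groups compared, a limit on the difference, genes of at most 2% shared sequence, each sample left out, and the replicate number as a block.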

Additional observations from a re-analysis of the deposited data

How the results depend on the processing

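For the tumors against the MCLI livers, the floor fixed the direction of 21 of the 44 genes, so stability is given first for the others. The 12 genes at 0.5 FPKM or more in all 8 samples all passed as higher with a pseudocount of 0.1 and without a floor. They also passed under median-ratio, total and quantile scaling, without a trend, with only the groups compared and without any 1 liver. So did 23 of the 23 outside the 21, except for 22 without MCLI liver replicate 3. With a tumor left out, 12 of the 12 and 23 of the 23 stayed above 0. Among the 23, Ccna2, Cdca8 and Prc1 also needed a tumor to pass the floor. With a floor of 1 FPKM in 4 samples 12 of 44 could be tested, of which 12, 3 and 11 passed in the tumors against the MCLI livers, the SALI livers against the MCLI livers and the SALI livers against the tumors (1962, 4034 and 3356 of all 10244 genes), and 12 in the F test. A limit of 1 on the log2 difference left 40, 1 and 34 of the 44 in the same order, the 21 included. In the first comparison it left 22 of the 23 others. Of all genes it left 647, 1255 and 1389, against 2257, 4464 and 3957 without it. Of the 38 genes of at most 2% shared sequence 38, 3 and 37 passed in the same order (1843, 3162 and 2787 of all 9662 such genes). Of those 38, 21 had not passed the floor through the tumors alone, and 21 of these passed in the first comparison.

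For the SALI livers against the MCLI livers, a pseudocount of 0.1 gave 6 of the 44, with Cdc20, Incenp and Dlgap5 added, and 4542 of all 12125 genes, and only the 2 groups compared gave 5 and 5782. With only those groups, 2367 of all genes passed in the SALI livers against the tumors, and 41 of the 44, without Pttg1 and Incenp. Median-ratio scaling added Mad2l1 as lower (−0.26, adjusted p = 0.0399) and quantile scaling Mad2l1 and Cdk1 as lower. Over all the alternative settings, 18 of the 44 genes changed sign in this comparison.

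Of all genes that passed, 65.9% were higher in the tumors than in the MCLI livers, against 48.3%, 73.7% and 46.6% under median-ratio, total and quantile scaling. In the SALI livers against the MCLI livers 65.7% were higher, against 50.3% (median-ratio) and 44.1% (quantile), and in the SALI livers against the tumors 52.7%, against 37.3% (total). The median of the 44 genes in the tumors against the MCLI livers stayed between 1.36 and 1.60 under the scalings, while that of all genes moved from 0.12 to 0.01 (median-ratio), 0.19 (total) and −0.02 (quantile). The medians of the 44 include the 21 genes whose direction the floor fixed, and none was taken over the others alone. In the SALI livers against the MCLI livers the median of the 44 was 0.02, −0.02 under median-ratio and −0.08 under quantile scaling. A pseudocount of 0.1, which weighs low values more, gave medians of 2.96 in the tumors against the MCLI livers and −2.97 in the SALI livers against the tumors.

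With each sample left out in turn, between 43 and 44 of the 44 genes passed in the tumors against the MCLI livers (22 to 23 of the 23 free in direction), between 2 and 5 in the SALI livers against the MCLI livers, between 41 and 43 in the SALI livers against the tumors, and 44 in the F test. A lone tumor was assumed to vary like the other groups. Of all genes between 885 (without MCLI liver replicate 1) and 4322 (without tumor replicate 2), between 2672 and 5784, and between 2967 and 5029 passed in the same order. Without MCLI liver replicates 2 and 3 the first of these counts was 1125 and 933. In the SALI livers against the MCLI livers, 5 of the 44 passed without tumor replicate 2 or 3, with Cdc20 and Incenp added.

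Replicate numbers 2 and 3 occur in both the MCLI livers and the tumors, but belong to different mice, and the difference between replicates 3 and 2 in the tumors had a correlation of −0.17 with that in the MCLI livers over genes. In a fit of those 4 samples with the number as a replicate block the median was 1.51, as it was without MCLI liver replicate 1. With both numbers in both groups a block cannot change the difference of means, so this is no test of its size. All 44 were above 0, which the floor had fixed for 21. In that fit 1 of the 44 genes and 16 of all genes passed, with 1 residual degree of freedom. Crossed numbers as a block, added after seeing the data, left 0 of the 44 and 2 of all genes. The unknown depth limits what can be said of the livers, where most of these genes were under 1 FPKM.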

Other observations

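Markers of further cell types were measured in the same samples. Of 8 endothelial markers 0 were higher and 3 lower in the tumors than in the MCLI livers (limma, unadjusted p under 0.05 for 0 and 3), 1 was higher and 3 lower in the SALI livers than in the MCLI livers, and their summed FPKM lay between 45.2 and 48.4 in the MCLI livers, 21.9 and 39.6 in the SALI livers, and 25.2 and 30.9 in the tumors. The 8 erythroid markers listed summed to between 36.8 and 52.4 in the MCLI livers, 5.69 and 47.6 in the SALI livers, and 12.7 and 27.3 in the tumors. Of the 5 erythroid markers tested 1 was higher and 1 lower in the SALI livers than in the MCLI livers. The 10 neutrophil markers summed to between 3.94 and 16.3 in the MCLI livers, 9.16 and 11.5 in the SALI livers, and 6.999 and 16.6 in the tumors, and of the 5 tested 1 was higher and 0 lower than in the MCLI livers in both the tumors and the SALI livers.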
